A study of Sus scrofa with 13 samples.

Results

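The genes described here are 34 Ensembl genes of the pig taken for a climb at 2 successive steps in growing skeletal muscle, which was measured in all but 3 of them. They were selected on the deposited values of longissimus dorsi, the long muscle of the back. A gene was taken when its level at postnatal day 240 was at least 2 RPKM and at least 2 times its level at day 30, and when its level at day 30 was at least 2 times its level at day 0. RPKM is a read number divided by the length of the feature and by the read total of the library. It does not make the libraries fully comparable, since RPKM values summed to 61672 in spleen and 214285 in ovary. Several results are therefore also given under other scalings. The selection kept 34 of the 21607 Ensembl genes listed, or 0.925% of the 3676 genes that reached 2 RPKM in muscle at day 240. The word background below means these 3676 genes. The pathway lists are read beside a wider set that is given with them, and counts printed without a background share have none. A gene symbol was known for 11 of the 34 genes, and the other 23 are given by their Ensembl identifier.

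The RNA of single tissues came from Guizhou mini-pigs, a small Chinese breed, and no treatment is named. Adipose tissue, heart, kidney, liver, lung, ovary, spleen and testis were taken at 240 days after birth, and longissimus dorsi at 0, 30 and 240 days. A tissue mixture and a muscle mixture (spelled tissue-mixure and muscle-mixure in the labels) pooled equal amounts of RNA from multiple breeds and time points. The first came from multiple tissues. The source of the second is labelled multiple muscle tissues, so muscles other than longissimus dorsi may be in it. The labels state neither the number of animals behind a library nor the breeds and ages in the mixtures. Each group was 1 library, so no difference has a replicate check and no test between groups was made. Since the tissues are mixtures of cell types, fewer cells of a type and less RNA per cell cannot be told apart.

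The 13 libraries held between 21685316 reads in ovary and 108337358 reads in the tissue mixture, of which 11.6% to 38.0% were counted on features. Muscle had 35748717 reads at birth (day 0), 24445391 after 30 days and 32641450 after 240 days. The reads behind each value were worked back from the deposited RPKM, and the intervals given below are exact Poisson 95% intervals of these reads (for ratios, exact binomial intervals), which cover counting error only. Actin of the skeletal muscle fibre (ACTA1) was listed at 2012 RPKM at day 0, 3183 RPKM at day 30 and 2998 RPKM at day 240, and at no more than 2.91 RPKM in the organs other than heart, where it was 538 RPKM.

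After birth, the fast muscles of the trunk are generally described as leaving behind a fetal programme and building the machinery of short bursts of contraction. Fibres of this kind draw ATP from glycogen, which is broken down through glycolysis to pyruvate, and lactate dehydrogenase turns pyruvate into lactate so that glycolysis can go on when oxygen is short. Creatine phosphate buffers ATP during the first moments of contraction, and titin, with the ankyrin repeat proteins bound to it, senses stretch in the sarcomere. The member genes with a symbol fall on several of these functions and on others that are better known from liver and kidney.

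LDHA (ENSSSCG00000013366), the muscle-type subunit of lactate dehydrogenase, was the most abundant of the 34 genes. Its level was 214 RPKM (95% interval 211 to 218, 12904 reads) at day 0, 489.5 RPKM (483 to 496) at day 30 and 1301 RPKM (1292 to 1311, 71480 reads) at day 240. It took 0.177% of all counted reads at day 0, 0.556% at day 30 and 0.999% at day 240. The step from day 0 to day 30 was 2.28-fold (2.23 to 2.33), and the step from day 30 to day 240 was 2.66-fold (2.62 to 2.70), and which of these was larger depended on scaling. With the RPKM totals of the stages set equal they were 3.46-fold and 1.66-fold, and with the stages brought to an equal median ratio 4.22-fold and 2.04-fold. Among the other organs the highest level was 32.3 RPKM in testis, 40.3-fold below muscle at day 240, and heart had 4.86 RPKM. In the muscle mixture LDHA was at 470.1 RPKM, just under its level at day 30, and in the tissue mixture it was at 62.9 RPKM.

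ANKRD23 (ENSSSCG00000008200), an ankyrin repeat protein of the titin complex, and FBXO40 (ENSSSCG00000011885), the substrate-binding subunit of a ubiquitin ligase of striated muscle, followed in abundance. ANKRD23 was at 42.1 RPKM (39.9 to 44.4) at day 0, 84.3 RPKM (80.5 to 88.1) at day 30 and 169.7 RPKM (165 to 174) at day 240. FBXO40 was at 8.01 RPKM (7.44 to 8.60), 25.98 RPKM (24.7 to 27.3) and 84.0 RPKM (82.1 to 86.0) at the same ages. The stages did not overlap within counting error for either gene, which the selection made likely at these read numbers. As deposited, FBXO40 climbed by almost equal factors at each step, 3.24-fold (2.97 to 3.54) and then 3.23-fold (3.07 to 3.41), while equal totals gave 4.92-fold and 2.02-fold. ANKRD23 lay on the selection limits, with 2.0-fold (1.87 to 2.15) and 2.01-fold (1.91 to 2.12), and equal totals gave 3.03-fold and 1.26-fold.

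These 2 genes had in common a high level in heart, the other striated muscle sampled. ANKRD23 had 69.7 RPKM in heart and between 0.719 and 3.20 RPKM in the other 7 organs. FBXO40 had 67.3 RPKM in heart, 3.81 RPKM in kidney and at most 0.579 RPKM in the remaining 6. Heart FBXO40 was thus close to adult muscle, which was 1.25-fold higher, while ANKRD23 was 2.43-fold higher in muscle than in heart. A further gene with this pattern was ENSSSCG00000030799, at 0.95 RPKM, 4.69 RPKM and 14.0 RPKM in the 3 stages, with 4.49 RPKM in heart and at most 0.211 RPKM in any other organ. Its day 0 value rested on 13 reads.

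Genes of energy metabolism formed the next group. PGM2L1 (ENSSSCG00000014838), which makes glucose 1,6-bisphosphate, the cofactor of phosphoglucomutase, was at 0.48 RPKM (31 reads) at day 0, 1.3 RPKM (57 reads) at day 30 and 8.12 RPKM (476 reads) at day 240. As deposited, its steps were 2.69-fold (1.71 to 4.31) and 6.25-fold (4.74 to 8.38), and equal totals gave 4.08-fold and 3.91-fold, so that no order of the steps is given. GAMT (ENSSSCG00000023142), the enzyme of the last step of creatine synthesis, was at 0.580 RPKM, 1.22 RPKM and 6.35 RPKM. Its steps were 2.10-fold (1.20 to 3.74) and 5.22-fold (3.61 to 7.76) as deposited, and 3.18-fold and 3.26-fold with equal totals. ALDH2 (ENSSSCG00000009889), the mitochondrial aldehyde dehydrogenase, was at 2.45 RPKM, 5.92 RPKM and 18.9 RPKM. ACSM5 (ENSSSCG00000026453), a mitochondrial ligase that activates medium-chain fatty acids, was at 0.309 RPKM, 2.11 RPKM and 4.40 RPKM, with 6.84-fold (4.62 to 10.4) at the first step and 2.08-fold (1.72 to 2.53) at the second. The larger first step of ACSM5 held with equal totals (10.4-fold and 1.3-fold) and under the median ratio (12.6-fold and 1.6-fold).

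OPTN (ENSSSCG00000023247), the autophagy receptor optineurin, was at 8.41 RPKM (7.75 to 9.10) at day 0, 26.5 RPKM (25.1 to 28.0) at day 30 and 76.4 RPKM (74.3 to 78.6) at day 240. EGF (ENSSSCG00000009134), the epidermal growth factor precursor, was at 9.28 RPKM (8.43 to 10.2), 20.5 RPKM (19.0 to 22.2) and 56.6 RPKM (54.4 to 58.9). For both genes each stage lay above the interval of the stage before, which the selection made likely at these read numbers. With equal totals the steps were 4.77-fold and 1.81-fold in OPTN, and 3.36-fold and 1.72-fold in EGF.

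**Figure D1:**
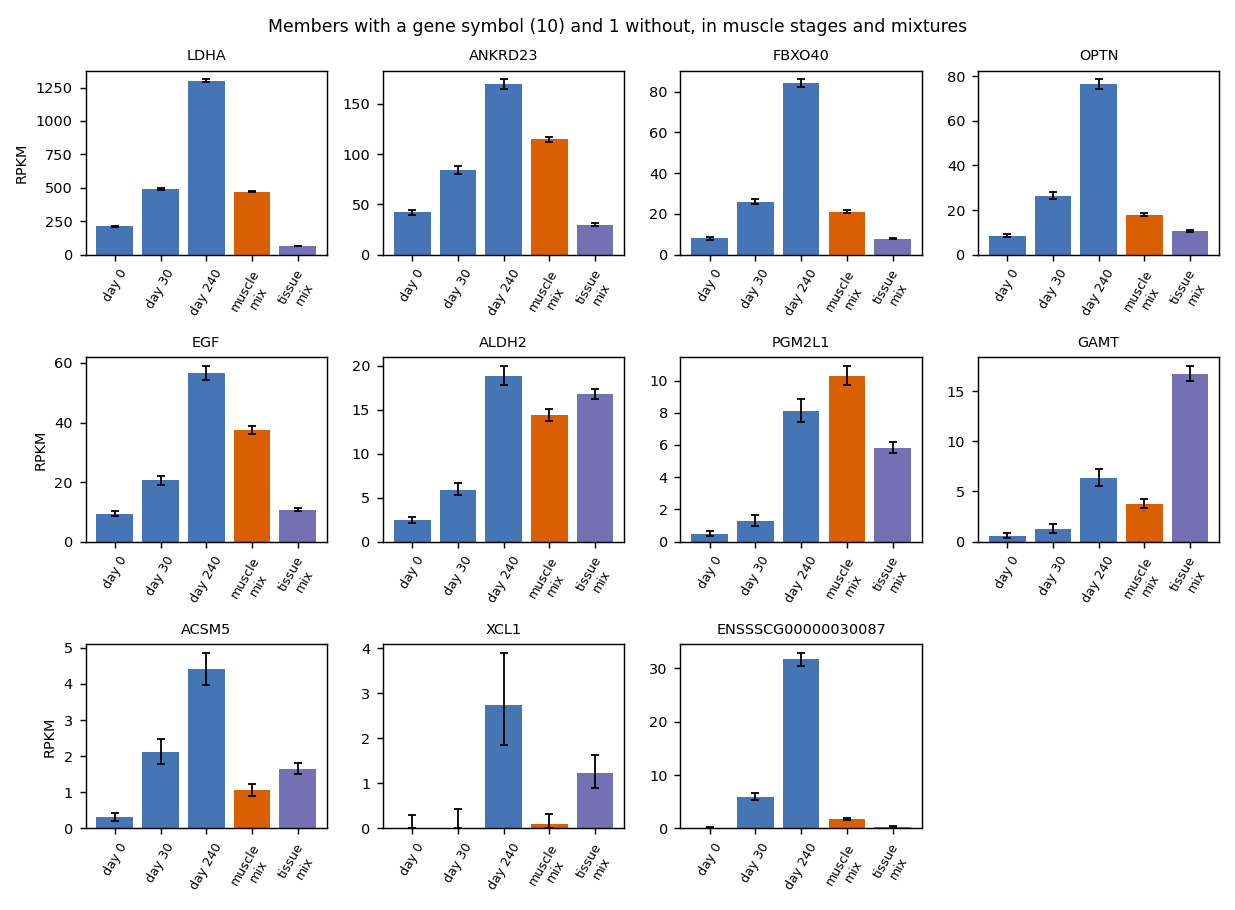
RPKM (linear axis, a scale of its own in each panel) of 10 member genes with a symbol and of ENSSSCG00000030087 in the 3 muscle stages (blue), the muscle mixture (orange) and the tissue mixture (purple), 1 library each. Error bars are exact Poisson 95% intervals of the reads; LDHA goes from 214 to 1301 RPKM between day 0 and day 240, and XCL1 is at 0 until day 240.

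Among the genes without a symbol, ENSSSCG00000030087 had the largest climb of all 34. It had 0.112 RPKM (11 reads) at day 0, 5.94 RPKM (398 reads) at day 30 and 31.6 RPKM (2832 reads) at day 240, a difference of 7.22 on the log2(RPKM + 0.1) scale. In the 8 other organs together it had 1 read, in liver. It was at 1.70 RPKM in the muscle mixture and 0.323 RPKM in the tissue mixture, so the muscle mixture was 5.27-fold (4.17 to 6.70) higher. ENSSSCG00000029199 had a similar profile at a lower level, with 0.73 RPKM, 3.57 RPKM and 18.1 RPKM in the stages and at most 0.578 RPKM in any other organ.

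Several more were abundant at day 240. ENSSSCG00000008982 was at 6.88 RPKM, 20.4 RPKM and 55.1 RPKM in the stages, 5.11-fold above its next organ, liver (10.8 RPKM). ENSSSCG00000004497 was at 2.09 RPKM, 9.01 RPKM and 24.6 RPKM, with spleen (6.70 RPKM) and lung (4.33 RPKM) next and at most 0.643 RPKM in the other 6 organs. ENSSSCG00000027559 was at 3.59 RPKM, 7.52 RPKM and 18.4 RPKM, and is taken up with kidney below. The members without a symbol that are not named up to here had between 2.07 and 10.2 RPKM at day 240.

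The rise was not a steady one for all 34. At day 0, 8 genes had no read, and 3 of these had none at day 30 either: ENSSSCG00000006705, XCL1 and ENSSSCG00000007006. They met the rule only because 0 is not less than 2 times 0, so a climb at both steps was not measured in them. XCL1 (ENSSSCG00000006298), a chemokine of T and natural killer cells, had 31 reads at day 240, 2.74 RPKM (1.86 to 3.90). This is 7.74-fold above the level that 3 reads would have given at day 30 (lower limit of the ratio of day 240 to day 30, 5.93). ENSSSCG00000006705 had 28 reads and 3.0 RPKM, 6.99-fold above the level of 3 reads at day 30 (lower limit of the ratio 5.32). ENSSSCG00000007006 had 15 reads and 2.07 RPKM, 3.74-fold above that level (lower limit 2.69). Markers of T and B lymphocytes were low throughout, since the 7 markers found summed to 0.051 RPKM at day 0, 0.178 RPKM at day 30 and 0.339 RPKM at day 240, against 41.2 RPKM in spleen. At day 240, 4 of the 7 were at 0, among them CD4. The part of these cells in the XCL1 value was not tested.

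The remaining 5 genes without reads at day 0 had 3 to 13 reads at day 30. ENSSSCG00000011574 had 13 reads at day 30 and 124 at day 240 (2.86 RPKM), at least 45.3-fold above the level of 3 reads at day 0. ENSSSCG00000012805 had 9 and 65 reads (23.7-fold, lower limit 18.8), and ENSSSCG00000004084 had 6 and 43 reads (15.7-fold, lower limit 12.2). ENSSSCG00000023597 had 4 and 29 reads (10.6-fold, lower limit 8.07) and ENSSSCG00000028754 had 3 and 24 reads (8.76-fold, lower limit 6.59). For the last of these, the ratio of day 240 to day 30 was 5.99 with a counting interval of 1.82 to 31.1.

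Some members rested on few reads. Under 10 reads at day 0 or day 30 lay behind 11 of the 34 genes. These were short, with a median recovered length of 346 nt against 1674 nt for the others, and had between 2.07 and 6.07 RPKM at day 240. The lower 95% limit of the day 30 to day 0 ratio was above 1 in 27 genes and at least 2 in 17. For the ratio of day 240 to day 30 it was above 1 in all 34 and at least 2 in 22. Both limits were at least 2 in 12 genes, among them LDHA, FBXO40, OPTN and ALDH2. The reads behind these limits were also those of the selection, so the counts are descriptions, and no background share was computed for them. With equal totals, LDHA, OPTN and ALDH2 missed a limit of the rule. Of the 26 genes above 0 at day 0, 12 had the larger factor at the later step as deposited, but 2 with equal totals or under the median ratio.

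Just inside the limits stood ENSSSCG00000009495 (0.468 RPKM, 1.03 RPKM and 2.09 RPKM), ACSM5, ANKRD23, ENSSSCG00000027559, GAMT, ENSSSCG00000025168 (2.27 RPKM at day 240) and ENSSSCG00000007006. Just outside the limit of the first step were NTMT2 (1.97-fold), GANC (1.96-fold), MAP2K6 (1.95-fold) and ENSSSCG00000030512 (1.95-fold). The limit of the second step excluded ENSSSCG00000024859 (1.99-fold), EFCAB7 (1.94-fold, 240 RPKM at day 240), ENSSSCG00000025624 (1.89-fold) and AVIL (1.80-fold). Below 2 RPKM at day 240 were ENSSSCG00000023034 (1.94 RPKM), ENSSSCG00000008432 (1.75 RPKM), ENSSSCG00000005278 (1.73 RPKM) and ENSSSCG00000002886 (1.68 RPKM). The boundary therefore ran through a continuous range of values.

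How common each step was among the 3676 genes also depended on scaling. As deposited, 4.41% were at least 2 times higher at day 30 than at day 0 and 31.7% were at least 2 times higher at day 240 than at day 30. Over the background, the median difference was -0.93 on the log2(RPKM + 0.1) scale for the first step and 0.63 for the second. For the 34 members, the corresponding medians were 1.60 and 1.68, as the selection required, and the median from day 0 to day 240 was 3.48 against -0.32 in the background. With equal totals, 10.01% of the background passed the first step and 10.9% the second, and under the median ratio 15.2% and 17.8% did. The background medians of the 2 steps were then -0.34 and -0.04 with equal totals, and -0.06 and 0.26 under the median ratio. The mirror rule, a fall of at least 2 times at each step from at least 2 RPKM at day 0, was met by 136 genes.

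The balance of rising and falling genes depended on how the 3 libraries were scaled. As deposited, 34 genes rose and 136 fell at both steps, so that 20% of them rose. When the stages were brought to an equal median ratio, 58 rose and 55 fell, or 51.3%. When their RPKM totals were made equal, 25 rose and 142 fell, or 15.0%. On the log2 scale, the median ratio of the deposited values was 0.47 at day 0, -0.42 at day 30 and -0.04 at day 240, and was divided out. Of the 34 members, 17 met the rule under these 2 scalings and also under a scaling that left out the 10 highest features, among them FBXO40, PGM2L1, GAMT and ENSSSCG00000030087. LDHA, OPTN and EGF missed a limit of the rule when the totals were set equal and met it under the median ratio. ANKRD23 and ACSM5 were among 9 genes that met the rule only as deposited.

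**Figure D2:**
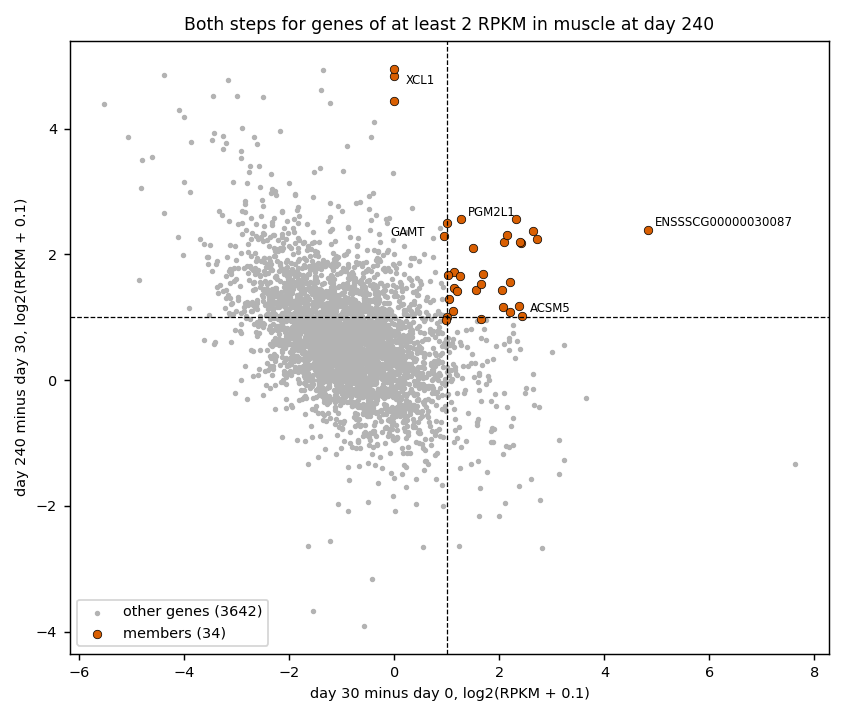
Each point is 1 of the 3676 Ensembl genes of at least 2 RPKM in muscle at day 240, with the day 30 minus day 0 difference on the horizontal axis and the day 240 minus day 30 difference on the vertical axis, both on the log2(RPKM + 0.1) scale. Orange points are the 34 members and dashed lines mark a difference of 1; most grey points lie left of 0, the 3 orange points at 0 had no reads at day 0 and day 30, and a few members fall just under a line because of the added 0.1.

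The organs other than muscle were not used in the selection. At 240 days, muscle had the highest level of the 9 organs for 15 of the 34 members (44.1%), against 10.6% of the background, and it was at least 2 times every other organ for 12 members (35.3%, background 5.17%). The 12 were LDHA, ANKRD23, XCL1 and 9 genes without a symbol. The value of muscle at day 240 had itself been selected to be high, so that these shares are descriptions. With the organs brought to an equal median ratio, muscle was highest for 20 members (58.8%), and the background rose to 29.7%. The organ specificity index tau, which is 0 for an even level over organs and 1 for a single organ, had a median of 0.562 in the members and 0.269 in the background. It was at least 0.8 for 7 members (20.6%, background 2.94%) and at least 0.9 for 2 (5.88%, background 0.653%), ENSSSCG00000030087 with 0.998 and ENSSSCG00000006705 with 0.902. OPTN had the lowest, 0.10, with 15.0 RPKM in spleen, 95.4 RPKM in ovary and values between these in the other organs.

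The other 19 members were higher in an organ other than muscle. Most frequent was kidney, with 7 members (20.6%) against 3.86% of the background. Liver was highest for 3 members (8.82%, background 1.25%). Testis and ovary were each highest for 4 members (11.8%), below their background of 28.0% and 43.7%, and lung for 1 (background 3.4%). Heart, spleen and adipose tissue were highest for none, where the background had 6.56%, 1.41% and 1.2%. Scaling the organs to the same total left 6 members (17.6%) highest in kidney, against 7.81% of the background, and scaling to the same median ratio left 6 against 5.47%. For liver the same scalings gave 6 members (17.6%) against 4.49% and 4 (11.8%) against 9.39%, so the 2 shares were close under the median ratio. Testis was then highest for 1 member (background 18.2%) and 2 members (17.3%), and ovary for 3 (15.4%) and 1 (9.49%).

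EGF led the kidney group. It had 119 RPKM (116 to 122) in kidney, 56.6 RPKM in adult muscle and at most 0.758 RPKM in the other 7 organs. ENSSSCG00000027559 had almost the same profile, with 52.8 RPKM in kidney, 18.4 RPKM in muscle at day 240 and at most 1.05 RPKM elsewhere. The ratio of EGF to this gene was 2.26 (2.16 to 2.36) in kidney, 2.58 (2.17 to 3.08) in muscle at day 0, 2.73 (2.36 to 3.16) at day 30 and 3.07 (2.84 to 3.32) at day 240. In adipose tissue it was 0.719 (0.465 to 1.10). The ratio was 2.40 (2.25 to 2.55) in the muscle mixture and 1.55 (1.43 to 1.675) in the tissue mixture. The tissue mixture thus lay below kidney and every muscle stage. The pair was chosen for comparison after its values were seen. The kidney tubule markers UMOD, SLC12A1 and AQP2 had no read in muscle at day 0 and day 240 and summed to 0.060 RPKM at day 30, against 256 RPKM in kidney.

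The other kidney-high members were less restricted. ENSSSCG00000025168 had 31.9 RPKM in kidney, 23.0 RPKM in lung, 12.6 RPKM in heart and 2.27 RPKM in adult muscle. ENSSSCG00000010215 had 19.1 RPKM in kidney and 9.79 RPKM in adult muscle, and ENSSSCG00000005776 had 14.5 RPKM and 10.2 RPKM. ENSSSCG00000009495 and ENSSSCG00000016669 had 9.61 RPKM and 7.17 RPKM in kidney.

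The 3 liver-high members were all enzymes. ALDH2 had 66.3 RPKM in liver, 36.1 RPKM in ovary, 22.2 RPKM in kidney and 0.675 RPKM in heart, so adult muscle (18.9 RPKM) lay among the middle organs and heart was the lowest of all 9. GAMT had 34.5 RPKM in liver, 6.35 RPKM in adult muscle and at most 3.78 RPKM in the others. ACSM5 had 7.46 RPKM in liver, 4.40 RPKM in adult muscle and at most 0.425 RPKM elsewhere. Of the 4 hepatocyte markers found, ALB, TTR, APOA1 and CYP2E1, the sum in muscle was 0 RPKM at day 0, 2.32 RPKM at day 30 and 0.056 RPKM at day 240, against 5858 RPKM in liver.

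In testis and ovary the leading members were of different kinds. ENSSSCG00000007006 had 194 RPKM in testis, 15.1 RPKM in lung and 2.07 RPKM in adult muscle, and ENSSSCG00000004417 had 18.8 RPKM in testis and 6.08 RPKM in adult muscle. The 5 male germ cell markers summed to 0 RPKM, 0.267 RPKM and 0.620 RPKM in the muscle stages and to 4667 RPKM in testis. At day 240 the sum came from PRM1 (0.400 RPKM) and TNP1 (0.219 RPKM), with ODF1, DDX4 and SYCP3 at 0. This sum and ENSSSCG00000007006 both had their highest muscle value at day 240, and its part in that value was not tested. In ovary, OPTN had 95.4 RPKM, ENSSSCG00000023597 had 14.7 RPKM and ENSSSCG00000025300 had 11.4 RPKM. In lung, ENSSSCG00000022368 had 9.02 RPKM, next to 6.02 RPKM in adult muscle.

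With muscle left aside, heart did not stand out. Heart was at least 2 times the median of the other 7 organs for 7 members (20.6%), against 19.5% of the background, and it was the highest of the 8 organs for 3 members (8.82%, background 10.5%), which were ANKRD23, FBXO40 and ENSSSCG00000030799. Kidney was highest of the 8 for 8 members (23.5%, background 4.3%) and liver for 6 (17.6%, background 1.5%). The shares of the highest of 8 organs were computed only as deposited, and those of 9 organs moved with scaling. Testis was highest of the 8 for 7 members (background 29.8%), ovary for 6 (background 46.2%), lung for 2 (background 4.11%), and spleen and adipose tissue for 1 each (background 1.74% and 1.8%). A level of at least 0.5 RPKM was reached by fewer members than background genes in every organ. In spleen 13 members reached it (38.2%, background 90.5%), in liver 15 (44.1%, background 85.1%) and in adipose tissue 19 (55.9%, background 92.8%). In heart and in ovary it was 20 (58.8%, background 96.2% and 94.7%), in testis 21 (61.8%, background 94.6%), and in lung and in kidney 22 (64.7%, background 94.1% and 92.9%). For heart, liver and spleen the median level of the members was 0.874 RPKM, 0.364 RPKM and 0.234 RPKM, against 4.90 RPKM, 2.11 RPKM and 3.72 RPKM in the background.

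**Figure D3:**
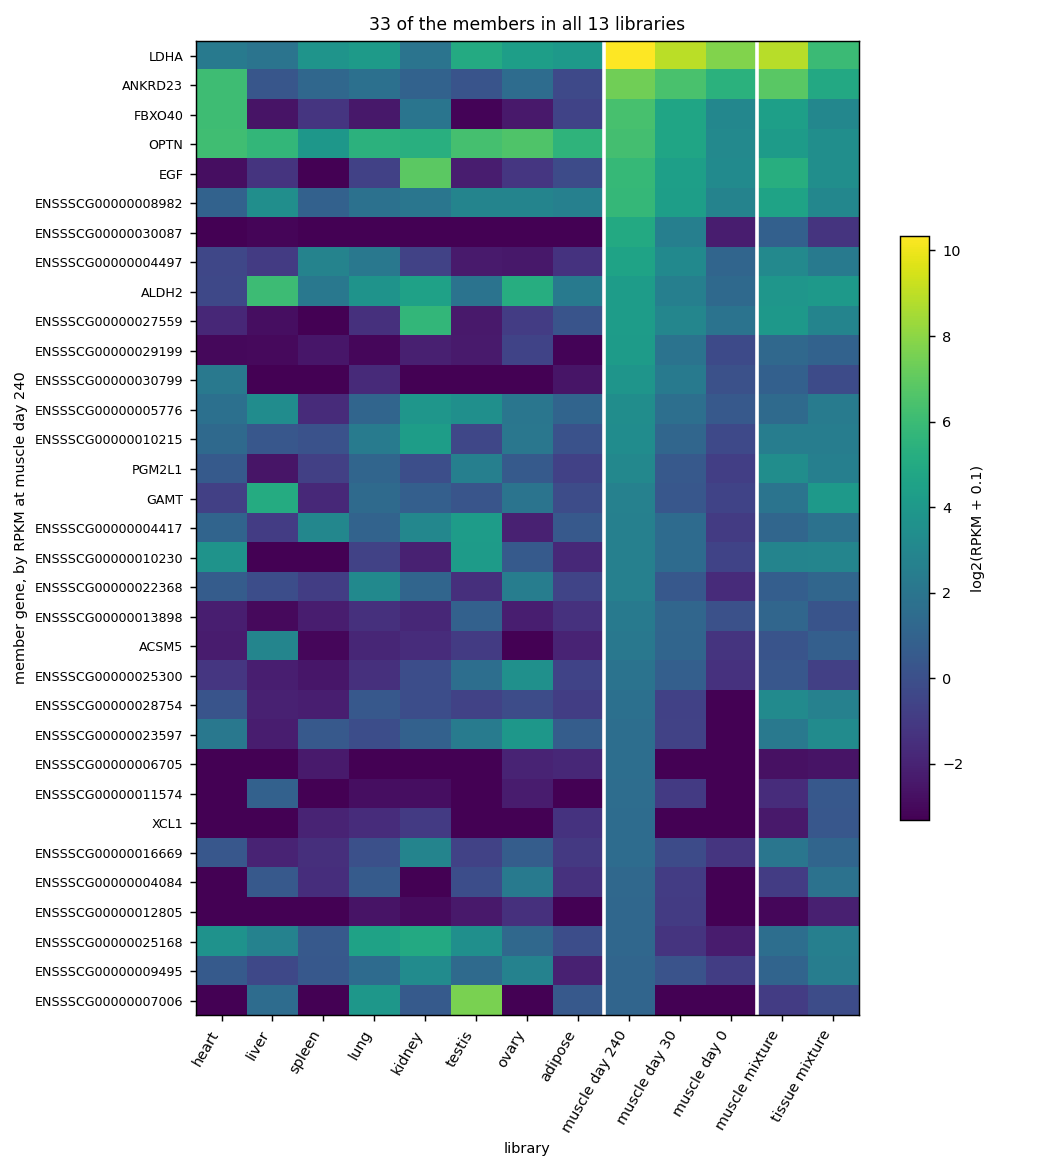
Level of 33 of the 34 members (rows, ordered by RPKM in muscle at day 240) in all 13 libraries (columns), as log2(RPKM + 0.1) on the colour scale. White lines part the 8 other organs, the 3 muscle stages and the 2 mixtures; ANKRD23 and FBXO40 are bright in heart, EGF and ENSSSCG00000027559 in kidney, ALDH2 and GAMT in liver, and OPTN in every organ.

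The 2 mixtures were also outside the selection. The muscle mixture was at least 2 times the tissue mixture for 10 members (29.4%, background 17.1%), and the tissue mixture was at least 2 times the muscle mixture for 8 (23.5%, background 10.5%). The median difference was 0.12 on the log2(RPKM + 0.1) scale, next to 0.15 in the background. As deposited, the members thus lay on either side more often than the background, around nearly the same middle, and this was not tested. With equal totals the muscle mixture was at least 2 times higher for 12 members (background 20.8%). Under the median ratio it was so for 14 (background 26.6%). The count in favour of the tissue mixture was computed only as deposited.

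The largest difference in favour of the muscle mixture was that of LDHA, 470.1 RPKM against 62.9 RPKM or 7.47-fold (7.32 to 7.62). After ENSSSCG00000030087 came ANKRD23, with 115 RPKM against 30.1 RPKM or 3.81-fold (3.65 to 3.98), and EGF, with 37.4 RPKM against 10.8 RPKM or 3.47-fold (3.26 to 3.69). At the other end, GAMT had 3.77 RPKM in the muscle mixture and 16.7 RPKM in the tissue mixture, a ratio of 0.225 (0.198 to 0.256). ENSSSCG00000004084 had 16 and 209 reads (ratio 0.132, 0.074 to 0.219) and ENSSSCG00000011574 had 20 and 180 reads (ratio 0.191, 0.114 to 0.304). XCL1 had 2 reads in the muscle mixture and 46 in the tissue mixture (ratio 0.075, 0.0088 to 0.286). ENSSSCG00000012805 had 1 and 12 reads (ratio 0.143, 0.0034 to 0.968). ALDH2 was nearly level, with 14.4 RPKM and 16.8 RPKM.

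Set against the stages, the muscle mixture lay above day 0 for all 26 members that had reads at day 0. For the 8 members without reads at day 0, any read puts the mixture above that stage, and they had between 1 and 137 reads in it. It lay above day 0 and at most at day 30 for 14 members (41.2%, background 2.75%), among them LDHA, FBXO40, OPTN and ENSSSCG00000030087. Between day 30 and day 240 lay another 14 (41.2%, background 16.5%), such as ANKRD23, EGF, ALDH2 and GAMT, and including the 3 members without reads at day 30. It reached or passed day 240 for 6 members (17.6%), where the background had 75.8%, and was at or below day 0 for none, where the background had 29.9%. The background positions overlap, since day 0 was above day 240 for many of those genes, while the selection had fixed the order of the stages in the members and put day 0 low and day 240 high. With the totals set equal, 20 members lay between day 0 and day 30, 9 between day 30 and day 240, and 5 at or above day 240. Under the median ratio these counts were 25, 8 and 1.

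The 6 members that reached their day 240 level in the muscle mixture were PGM2L1 and 5 genes without a symbol. PGM2L1 had 10.3 RPKM in the mixture and 8.12 RPKM at day 240, and its interval in the mixture, 9.70 to 10.9 RPKM, lay above that at day 240, 7.40 to 8.88 RPKM. ENSSSCG00000028754 had 9.33 RPKM in the muscle mixture and 6.42 RPKM in the tissue mixture, above its 3.16 RPKM at day 240 and its level in every organ. It was the only member above all 9 organs in the tissue mixture (background 13.7%). OPTN was the opposite case, with 10.6 RPKM in the tissue mixture and at least 15.0 RPKM in each of the 9 organs, which 3.43% of the background shared. For the testis-high ENSSSCG00000007006 the tissue mixture had 0.790 RPKM, and the male germ cell markers summed to 0.168 RPKM there.

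**Figure D4:**
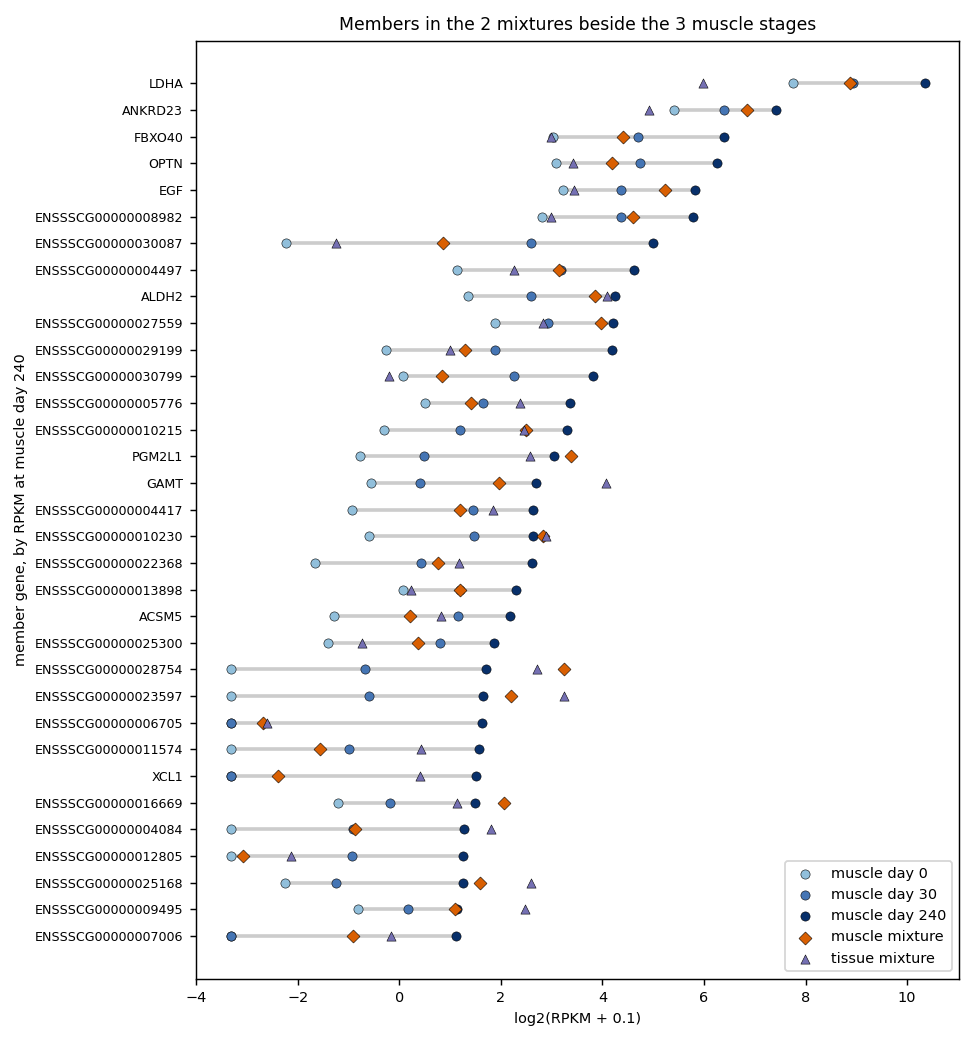
Level of 33 of the 34 members (rows) on the log2(RPKM + 0.1) axis in muscle at day 0, day 30 and day 240 (circles, light to dark, joined by a grey bar), in the muscle mixture (orange diamonds) and in the tissue mixture (purple triangles), 1 library each. The diamond is on the bar for most members and to its right for 6, among them ENSSSCG00000028754, ENSSSCG00000016669, ENSSSCG00000023597 and PGM2L1. The triangle of LDHA lies left of its bar, and that of GAMT right of its bar.

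Pathway lists placed LDHA beside the other genes of its route. Of the 5275 genes that reached 2 RPKM at day 0 or day 240, 7.3% rose and 36.3% fell by at least 2 times from day 0 to day 240 on the log2(RPKM + 0.1) scale, with a median of -0.69. In the list of glycolysis and glycogen genes, 16 of 23 were at least 2 times higher at day 240 and 2 at least 2 times lower, with a median of 1.5. LDHA had the largest factor, 6.07-fold, followed by PHKA1 of phosphorylase kinase (5.27-fold), the muscle glycogen phosphorylase PYGM (4.94-fold, 139 to 689 RPKM) and GPI (4.91-fold). GBE1, the glycogen branching enzyme, was lower, with 5.79 RPKM at day 0 and 1.88 RPKM at day 240, as was PPP1R3C with 4.21 RPKM and 2.04 RPKM. As deposited, levels increased at both steps in 16 of the 23, but by at least 2 times at the first step in 7 and at the second in 6, and LDHA alone was in both groups. GAPDH, for example, went from 1532 to 2466 and 4325 RPKM.

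**Figure D5:**
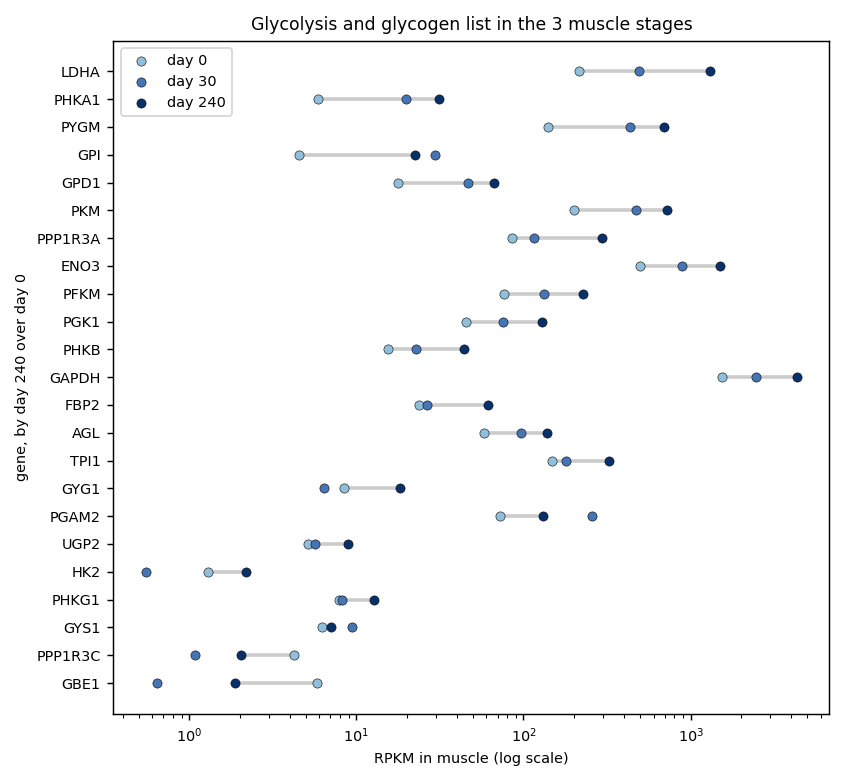
RPKM (log axis) in muscle at day 0, day 30 and day 240 (light to dark circles) for the 23 genes of the glycolysis and glycogen list with at least 2 RPKM at day 0 or day 240, ordered by the ratio of day 240 to day 0, 1 library each. LDHA at the top goes from 214 to 1301 RPKM, while GPI, PGAM2 and GYS1 are highest at day 30, and PPP1R3C and GBE1 at the bottom are highest at day 0.

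Other lists around the members moved less evenly. For the adult fast contractile apparatus, 8 of 16 listed symbols were found, without MYH1, MYH2 and MYH4. Of the 8 found, 6 were at least 2 times higher at day 240 than at day 0 and none lower, with a median of 1.26. Among the 6, TPM1, MYOM1 and MYOM2 had 1392, 89.8 and 87.7 RPKM in heart, so the list is not confined to fast fibres. Slow contractile genes had none of 5 in either direction, and developmental contractile genes had 1 of 4 higher and 1 lower. Of the developmental genes, MYH3 went from 37.3 to 96.3 RPKM and MYH8 from 1888 to 3695 RPKM between day 0 and day 240. ACTC1 fell from 84.9 to 0.939 RPKM. Calcium handling had 4 of 14 higher and none lower, and creatine and adenine nucleotide genes had 3 of 4 higher. The list of the sarcomere and Z-disc, which holds ANKRD23, had 3 of 18 higher and 4 lower. Fatty acid uptake and oxidation had 1 of 16 higher and 10 lower, with a median of -1.41. Nuclear genes of oxidative phosphorylation had none of 21 higher and 4 lower, mitochondrially encoded genes none of 13 higher and 1 lower, and genes of the tricarboxylic acid cycle none of 12 in either direction. LDHA and ANKRD23 were the only members found in these lists. Scaled to equal totals, the counts of these lists were the same, except that 5 oxidative phosphorylation genes were lower. Under the median ratio, where 13.7% of the 5275 genes were higher and 19.1% lower, the glycolysis list had 20 higher and 1 lower, the fast contractile list 8 higher, calcium handling 8 higher and fatty acid genes 8 lower. There the sarcomere list had 7 higher and 4 lower, which turned its balance, and 1 gene of oxidative phosphorylation was lower. The slow contractile list then had 2 of 5 higher and none lower, and the developmental list 3 of 4 higher and 1 lower. The medians of the mitochondrially encoded and tricarboxylic acid cycle lists turned from -0.19 and -0.18 to 0.32 and 0.32, so that no direction is given for these 2 lists.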

How the data were processed

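Total RNA from 13 pig libraries was depleted of ribosomal RNA and made into stranded paired-end libraries by the SMART or the dUTP method. Which library was made by which method is not stated. The submitters' processing notes name TopHat 1.3.2 and Cufflinks, and the study's methods name htseq-count for the reads of long non-coding RNAs. The authors deposited RPKM values, 1 per feature and library, for 32420 features. The genome build of these libraries is not given in the sources used here, so no coordinates are given.

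Total reads per library were recovered from the RPKM values as the numbers that make read numbers and lengths whole. All 25 features examined gave the same totals, and all 29462 features above 0 came out with whole reads (tolerance 1e-06). The limit of detection was set at 3 reads. Exact Poisson intervals at the 95% level were made from these reads, and ratio intervals from the exact binomial interval of the reads of the 2 libraries. All cover counting error only. PCR copies were not told apart from separate molecules. The recovery was tested on simulated data.

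Differences were computed on log2(RPKM + 0.1), which understates the change of low genes. Tau was computed over the 9 organs on the same scale. Differences between libraries were not tested, as each group was 1 library, and no gene set test was run. Lists held the genes whose symbols matched a listed identifier. Python 3.11.15, numpy 2.4.6, pandas 2.3.3, scipy 1.17.1 and matplotlib 3.10.9 were used.

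Genes named were the 10 members highest at day 240, the 10 with the largest rise, members of pathway or cell type lists, the 2 highest members of each organ in which they peaked, the 4 genes inside and outside each limit, the 4 highest and 4 lowest differences of the mixtures on log2(RPKM + 0.1), and up to 5 members without reads at day 0. The remaining members with a symbol, and the others given by identifier, were named to account for the set, after their values were seen. The members and the lists were chosen with earlier results of these data known. Alternatives were other fold limits, minimum levels, pseudocounts and scalings. Promoter and protein sequences were not used here. A few items, among them 1 member under these rules, are not reported here by name.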

Additional observations from a re-analysis of the deposited data

How the results depend on the processing

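The number of genes meeting the rule moved from 34 to 95 with a limit of 1.5 times at each step, 13 with 3 times, 767 with no minimum at day 240, 19 with at least 5 RPKM, 13 with at least 10 RPKM, 10 with 1 RPKM added to each value, 58 under the median ratio and 12 with both lower limits at least 2. It was 27 with 0.1 RPKM added, 25 with equal totals and 38 with equal totals without the 10 highest features. The 34 members made up 17 of the 25 and 25 of the 58. The median rise became 2.13 with a pseudocount of 1. Among the 13 members of at least 10 RPKM, 8 were highest in muscle and 3 had heart at least 2 times the other organs. An alternative chosen after seeing the data kept the 23 members with at least 10 reads at day 0 and day 30, which gave 4 for heart and 10 highest in muscle. The muscle mixture lay between day 30 and day 240 for 9 members with equal totals and 8 under the median ratio. Of the members above 0 at day 0, 12 had the larger later step as deposited and 1 to 2 under the other scalings, which were added for this count after seeing the data. Counts by organ and by mixture position also moved by over 1.5 times with scaling and are given beside those results. The median tau lay between 0.432 and 0.727 under its alternatives. No paired analysis was possible because each group was 1 library and the labels carry no replicate numbers. Leaving out a replicate was not possible either. The spread between animals was not measured, short members rest on few reads, and the cause of these changes was not tested.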
